A study of Caenorhabditis elegans with 12 samples.

Results

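Genomic intervals bound by 1 of 6 chromatin-associated proteins on the arms of the autosomes of Caenorhabditis elegans are described here. The proteins were mapped by ChIP-seq, in which protein-bound DNA is recovered with an antibody and sequenced, in whole wild-type larvae (strain N2) of the third larval stage (L3), and no mutant or treated animals were part of the comparison. Each protein (TOP-2, ZFP-1, BLMP-1, SIN-3, JMJD-2 or SCC-1) was immunoprecipitated in 2 replicates, giving 12 samples. The data are 6 peak lists, 1 per protein, each holding the positions (assembly ce10) of the peaks that passed a comparison of both replicates. The 7558 peaks were pooled, and those sharing at least 1 bp were merged into 5870 intervals. Intervals were selected from these values when all their peaks belonged to 1 protein, they were not on X, and their midpoint lay in the first or last 25% of the chromosome. This gave 1800 one-protein arm intervals, 30.7% of all intervals and 38.8% of the 4638 intervals with 1 protein. Position on an arm and the absence of other peaks are thus the criteria and not results, whereas the identity of the protein, the side, the autosome, the place within the arm and the peak width were not used.

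In C. elegans the centers of the autosomes are rich in broadly expressed and conserved genes. Toward the ends, repeats and H3K9-methylated chromatin become frequent, contact with the lamina at the nuclear edge is common, and the rate of meiotic recombination is higher. The proteins have different roles. SCC-1 is a subunit of cohesin, the ring complex that holds sister chromatids together and organizes loops. TOP-2 is a type II topoisomerase, which passes DNA strands through each other to relieve supercoils and tangles. SIN-3 is the scaffold of a histone deacetylase complex, and JMJD-2 is a demethylase of histone H3 lysines. ZFP-1 is the homolog of the mammalian chromatin protein AF10, and BLMP-1 is a zinc finger transcription factor related to mammalian Blimp-1 that acts in the epidermis and gonad. A peak list from intact larvae pools all tissues and does not tell in which of them a protein was bound. No sequence or gene annotation of ce10 was used here, so the intervals are given by position.

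The lists hold no heights, P-values or read counts. Depth is therefore unknown, and the spread between replicates could not be measured. The tests count intervals, and ranges in percent are 95% confidence limits by the exact Clopper-Pearson method. Both cover counting error alone, and neighboring intervals may depend on each other. The comparisons were therefore repeated with one-protein intervals of the same protein less than 10 kb apart counted once. Intervals shared by several proteins were counted once only with neighbors of the same set of proteins. The test of wide peaks, the tests against chromosome or arm length and those with autosomes as units were not repeated in this way. A chromosome was taken to end at the last base of any peak, which makes its outermost right interval lie at the end by construction where that peak is a member.

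ZFP-1 and SIN-3 supplied most of the one-protein arm intervals. ZFP-1 had 610 (33.9%) and SIN-3 472 (26.2%), followed by SCC-1 with 234 (13.0%), BLMP-1 with 181 (10.1%), TOP-2 with 171 (9.50%) and JMJD-2 with 132 (7.33%). These numbers follow in part from the length of the lists, which ran from 464 peaks for TOP-2 to 2466 for ZFP-1. As a share of all intervals in which the protein was found, on any chromosome, the order was different. TOP-2 was highest, with 36.9% of its intervals being one-protein arm intervals, and JMJD-2 and BLMP-1 were lowest with 16.2% and 18.4%. SIN-3, ZFP-1 and SCC-1 lay between, at 27.5%, 24.8% and 21.0%. None of the 1800 intervals merged more than 1 peak.

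To ask whether the proteins divide their sole sites differently between arms and centers, the 3908 autosomal one-protein intervals were compared. Arms and centers each make up 50% of the chromosome length, and 46.1% of these intervals were on arms. BLMP-1 and ZFP-1 had lower arm shares than the other proteins and TOP-2 had a higher one. Of the 513 BLMP-1 intervals, 35.3% (31.1% to 39.6%) were on arms, whereas the other 5 proteins had 47.7% there (odds ratio 0.598, p = 7.46e-07 in Fisher's exact test after adjustment). The BLMP-1 peaks were called with another tool than those of the other 5 proteins. In contrasts of BLMP-1 with other proteins, protein and tool therefore cannot be told apart. All tests were two-sided, and p-values were adjusted by the Benjamini-Hochberg method over the 6 proteins or over the number of comparisons named. For ZFP-1, 41.0% of 1487 intervals (38.5% to 43.6%) were on arms, against 49.2% for the others (odds ratio 0.720, Fisher's exact test, adjusted p = 2.50e-06). For TOP-2, 57.2% of 299 intervals (51.4% to 62.9%) were on arms, against 45.1% (odds ratio 1.62, Fisher's exact test, adjusted p = 0.000129). The BLMP-1 share was below that of the other proteins on 5 of 5 autosomes. The TOP-2 share was above them on 4 of 5, with IV as the exception (47.7% against 48.1%), and the ZFP-1 share was below them on 4 of 5, with V as the exception (44.2% against 40.6%). These calls held for each of the 3 proteins under every alternative applied to it, including comparison with chromosome length and leaving out each autosome in turn. With shared intervals included, BLMP-1 had 286 autosomal intervals on arms and 492 in centers, ZFP-1 812 and 1188, and TOP-2 196 and 151. The direction was thus that of the whole lists and was not particular to one-protein intervals.

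**Figure D1:**
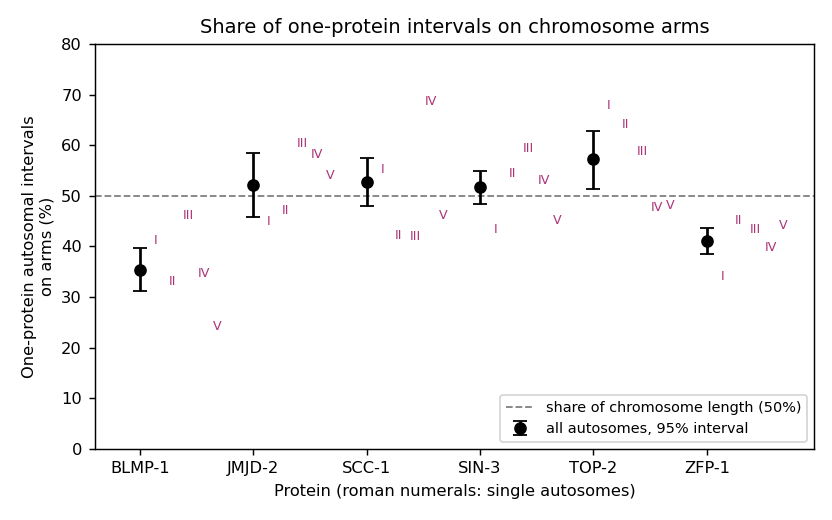
Share of the autosomal one-protein intervals of each protein that lay on chromosome arms, in percent (y axis), for the 6 proteins (x axis). Black points with bars give the share over all autosomes with its exact 95% interval, roman numerals give the share on each single autosome, and the dashed line marks the 50% of chromosome length that the arms make up. BLMP-1 (35.3%) and ZFP-1 (41.0%) lie below the line and TOP-2 (57.2%) above it.

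The arm shares of SCC-1, SIN-3 and JMJD-2 were close to each other and less firm. SCC-1 had 52.8% of 443 intervals on arms (others 45.2%, Fisher's exact test, adjusted p = 0.00335) and SIN-3 51.7% of 913 (others 44.3%, adjusted p = 0.000163). JMJD-2 had 52.2% of 253 (others 45.6%, Fisher's exact test, adjusted p = 0.0502), which did not pass the threshold of 0.05. By value the JMJD-2 share was above that of the others on 5 of 5 autosomes, on II by little (47.1% against 46.6%). The SIN-3 share was above that of the others on 5 of 5 autosomes and the SCC-1 share on 3 of 5. The SCC-1 call rested on chromosome IV, where 68.7% of its one-protein intervals were on arms. Without IV the SCC-1 share exceeded that of the others by 1.92 percentage points (adjusted p = 0.520, Fisher's exact test), and with arms of 33% of the chromosome by 3.21 (adjusted p = 0.228). The SIN-3 excess was 1.58 percentage points with neighbors counted once (adjusted p = 0.470, Fisher's exact test) and 4.07 with peaks less than 1 kb apart merged (adjusted p = 0.0793). Against the 50% of length in the arms neither protein passed (adjusted p = 0.381 for SCC-1 and 0.385 for SIN-3, exact binomial test). JMJD-2 passed under 4 of 12 alternatives. Among the 15 pairs of proteins, BLMP-1 differed from each of the other 5 proteins, with the smallest difference from ZFP-1 (35.3% against 41.0%, p = 0.0405 by Fisher's exact test after adjustment over 15 pairs). ZFP-1 also differed from the remaining 4 (largest adjusted p = 0.00225 in Fisher's exact test). No difference passed the test among the latter 4 proteins (lowest adjusted p = 0.164 by Fisher's exact test, for SIN-3 with TOP-2), which does not show that their shares are equal. With neighbors counted once, BLMP-1 and ZFP-1 no longer differed past the threshold (adjusted p = 0.256), and SIN-3 had a lower share than TOP-2 (46.6% against 59.6%, adjusted p = 0.00168, Fisher's exact test for both).

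On the X Chromosome, which the selection leaves out, the outer 25% at each end held 44.1% of the 152 one-protein intervals of BLMP-1 (36.0% to 52.4%) and 68.0% of the 50 of SIN-3 (53.3% to 80.5%). The other proteins lay between, with 55.6% for ZFP-1 and 59.4% for TOP-2. BLMP-1 was thus the lowest by value on X as on the autosomes, and the difference between X and autosomes was not tested.

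A site without other proteins was more frequent on arms than in centers for JMJD-2, SCC-1 and SIN-3, by 7.43 to 9.48 percentage points. Over all proteins, 79.9% of the 2254 arm intervals and 77.9% of the 2706 center intervals held 1 protein. Arms and centers are equally long, so peaks were denser in the centers. JMJD-2 was alone at 132 of its 307 arm intervals (43.0%) and at 33.5% of its 361 center intervals (odds ratio 1.50, Fisher's exact test, adjusted p = 0.0273). For SCC-1 the shares were 47.5% of 493 and 39.7% of 527 (odds ratio 1.37, Fisher's exact test, adjusted p = 0.0273), and for SIN-3 61.9% of 762 and 54.5% of 809 (odds ratio 1.36, adjusted p = 0.0180). These 3 lists often share sites, so the 3 comparisons are not independent: the most frequent combination among the 454 arm intervals with 2 or more proteins was SCC-1 with SIN-3 (111 intervals, 24.4%). All 3 calls missed the threshold after merging of peaks within 1 kb of each other, although the differences were then 8.76 percentage points for JMJD-2, 6.95 for SCC-1 and 6.19 for SIN-3 (adjusted p = 0.0506 for each, Fisher's exact test). With neighbors within 10 kb counted once the differences were 9.87 for JMJD-2 (adjusted p = 0.0632), 5.28 for SCC-1 (adjusted p = 0.320) and 1.72 for SIN-3 (adjusted p = 0.659, Fisher's exact test for each). This counting removed 6.82% of the JMJD-2, 20.1% of the SCC-1 and 27.8% of the SIN-3 one-protein arm intervals. Shared intervals were thinned less, from 222 to 208 on left and from 232 to 228 on right arms, so the 2 parts of the share were not treated alike. With arms of 33% the differences were 3.90, 1.56 and 4.02 (adjusted p = 0.642 for each, Fisher's exact test). BLMP-1 was alone at 63.3% of arm and 67.5% of center intervals (adjusted p = 0.360), ZFP-1 at 75.1% and 73.8% (adjusted p = 0.533) and TOP-2 at 87.2% and 84.8% (adjusted p = 0.533, Fisher's exact test for each). With the ZFP-1 list left out, so that sites shared only with ZFP-1 count as one-protein, the difference of arms from centers was -5.97 percentage points for TOP-2 (adjusted p = 0.0118) and -6.04 for BLMP-1 (adjusted p = 0.0302), and JMJD-2 did not pass (adjusted p = 0.0604, Fisher's exact test for each). Whether the proteins differ from each other in this contrast was not tested.

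**Figure D2:**
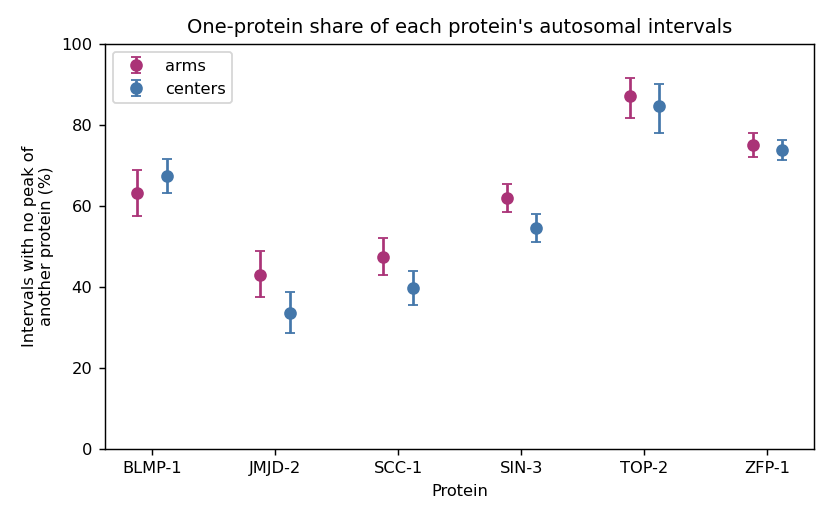
Percentage of the autosomal intervals of each protein that held no peak of another of the 6 proteins (y axis), on arms and in centers, for the 6 proteins (x axis), with exact 95% intervals. TOP-2 was alone most often in both regions (87.2% and 84.8%) and JMJD-2 least often (43.0% and 33.5%).

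The density of one-protein arm intervals varied 2.67-fold between the 10 arms. It was highest on the left arm of III, with 73.1 intervals per Mb, and lowest on the right and left arms of V, with 27.4 and 29.3 per Mb. The left arm of IV had 54.7 per Mb and its right arm 32.5. On I the values were 49.4 and 47.2 per Mb. V, the longest autosome (20.9 Mb), also had the fewest shared arm intervals, 54 against 90 to 119 on the others. In the centers, 409 one-protein intervals lay on V, 421 on III (13.8 Mb) and 489 on I (15.1 Mb). The low density on V was thus not particular to one-protein arm intervals. These made up 81.6% of all arm intervals on III and 84.6% on V, against 79.9% over all autosomes. Each protein had its own range. ZFP-1 had the smallest ratio of highest to lowest arm (2.26-fold), from 9.39 per Mb on the right arm of IV to 21.2 on the left arm of III. Counting error widens this ratio more for proteins with fewer intervals, and ZFP-1 had the most. Evenness and number of intervals were thus not separated. SIN-3 ran from 5.36 per Mb on the left arm of V to 27.3 on the left arm of III. SCC-1 ran from 2.62 per Mb on the right arm of II to 11.9 on the left arm of IV. TOP-2 reached 8.13 per Mb on the left arm of III and 1.34 on the left arm of V, which held 7 of its intervals. BLMP-1 was densest on the left arm of I, with 7.43 per Mb, and JMJD-2 on the left arm of III, with 4.93 per Mb.

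**Figure D3:**
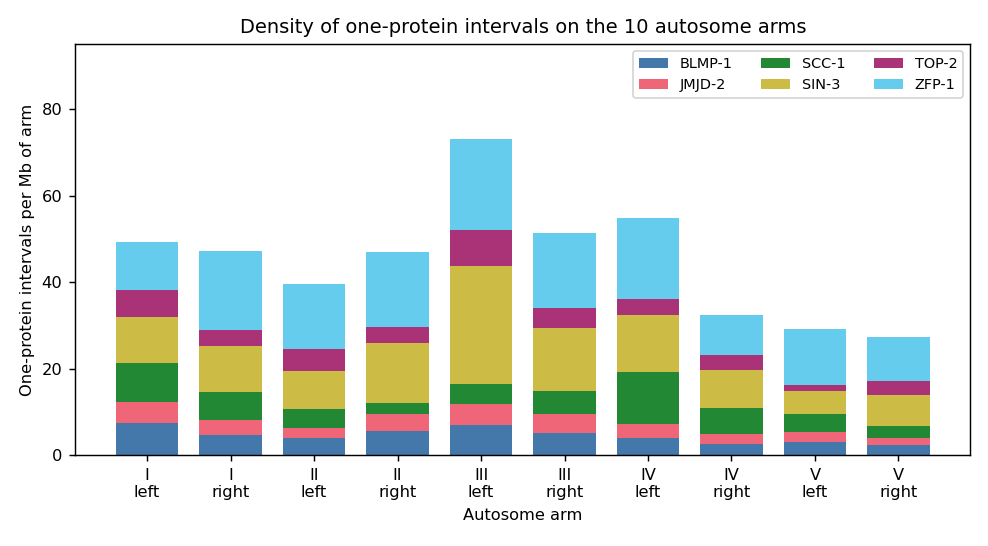
One-protein intervals per Mb of arm (y axis) on the left and right arm of each autosome (x axis), stacked by protein. The left arm of III has the highest total (73.1 per Mb) and the arms of V the lowest (27.4 and 29.3 per Mb).

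Comparison of the autosomes with each other showed an excess of SCC-1 on IV. Chromosome IV held 79 of the 234 SCC-1 arm intervals (33.8%, 27.7% to 40.2%), against 19.3% of those of the other 5 proteins (odds ratio 2.13, Fisher's exact test, adjusted p = 5.59e-05 with 30 combinations of protein and autosome). Conversely, SCC-1 was less frequent on III (14.5% against 25.2%, adjusted p = 0.00275) and on II (11.5% against 19.3%, adjusted p = 0.0271, Fisher's exact test). SIN-3 had 144 of its intervals on III (30.5% against 21.5%, adjusted p = 0.00180) and ZFP-1 121 on V (19.8% against 14.7%, adjusted p = 0.0355, Fisher's exact test). The other 25 combinations, among them all those of BLMP-1, JMJD-2 and TOP-2, did not pass. The SCC-1 excess on IV kept its call under all 7 alternatives, with differences between 9.96 and 14.5 percentage points. With neighbors within 10 kb counted once it was the only combination of 30 to pass, and the difference for SIN-3 on III was then 3.44 percentage points (adjusted p = 0.792 in Fisher's exact test). Among the alternatives, SCC-1 on II passed in 4 of 7 and on III in 5 of 7. Against the length of the arms, the SCC-1 difference was -2.18 percentage points on III (adjusted p = 0.614, exact binomial test). On II it was -6.98 (adjusted p = 0.0159, exact binomial test). The shares of a protein on the 5 autosomes add up to the whole, so an excess on IV lowers those on the others. The difference for ZFP-1 on V passed in 2 of 6 alternatives, in 1 of them with the opposite sign: against the length of the arms, V held fewer ZFP-1 intervals by 5.50 percentage points (adjusted p = 0.00656, exact binomial test). By that reference the other 5 proteins also had fewer intervals on V, with larger deficits than ZFP-1. Each passed (adjusted p between 3.52e-08 for SIN-3 and 0.0180 for JMJD-2, exact binomial test). These comparisons with length were not repeated with neighbors counted once.

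The sites of a protein were unevenly spread along the arms. The 1-Mb window with the most SIN-3 intervals was on III from 900001 to 1900000, with 53 SIN-3 intervals among 94 one-protein intervals, against an arm mean of 11.4 SIN-3 intervals per Mb. For SCC-1 it was on IV from 2000001 to 3000000, with 30 SCC-1 intervals among 71, against a mean of 5.67. ZFP-1 (27 intervals, III from 2400001 to 3400000) and TOP-2 (13 intervals, III from 1 to 1000000) also had their densest window on the left arm of III. That of BLMP-1 was on I from 400001 to 1400000 (11 intervals) and that of JMJD-2 on IV from 300001 to 1300000 (9 intervals). All 6 windows were on left arms, but ties went to the first window, and on each autosome the left arm was searched before the right. A preference for left arms was not tested with these windows. Each window was picked as the highest, so its excess is a description.

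Short runs of sites of the same protein were found, those of SIN-3 and SCC-1 within these windows. The tightest run of 5 one-protein intervals of the same protein was of SIN-3, on III from 1180092 to 1183181 (3.09 kb), part of 9 SIN-3 intervals in a row from 1180092 to 1187273 without an interval of any other kind between them. The next were of SCC-1 on IV, from 2716098 to 2719678 (3.58 kb) and from 2257914 to 2261627 (3.71 kb). SCC-1 also had 9 intervals in a row from 2711355 to 2755384 on IV. The longest such run of ZFP-1 held 12 intervals but spread over 98.7 kb, on V from 2183224 to 2281918. For BLMP-1, TOP-2 and JMJD-2 the longest runs held 4, 4 and 3 intervals.

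The left arms together held 981 intervals and the right arms 819 (54.5% left, 52.2% to 56.8%, p = 0.000146, exact binomial test). The 454 shared arm intervals, with 222 on left and 232 on right arms, had a lower left share (48.9%, p = 0.0352, Fisher's exact test). Both tests were chosen after the first results were seen, and with the 5 autosomes as units the excess on the left did not pass (p = 0.3125, exact sign-flip permutation test). With neighbors counted once, 724 intervals were on left and 670 on right arms (51.9%, p = 0.156, exact binomial test), and the difference from the shared intervals did not pass (p = 0.125, Fisher's exact test). The left share by value ran from 52.6% for ZFP-1 to 60.3% for SCC-1. It fell below 50% for SIN-3 with neighbors counted once (-1.61 percentage points from equal numbers) and without III (-1.52), and for ZFP-1 without IV (-0.82). SCC-1, with 141 intervals on left and 93 on right arms (60.3%, 53.7% to 66.6%), was the only protein to pass (adjusted p = 0.0123, exact binomial test against equal numbers). For the others the adjusted p was between 0.251 and 0.434 (exact binomial test). No difference in left share between a protein and the others passed the test (lowest for SCC-1 against the others, 60.3% against 53.6%, adjusted p = 0.403, Fisher's exact test, chosen after the first results were seen). The SCC-1 call was lost without chromosome IV (adjusted p = 0.452, exact binomial test), with neighbors counted once (adjusted p = 0.342), with peaks less than 1 kb apart merged (adjusted p = 0.162) and with arms of 33% (adjusted p = 0.0860, exact binomial test for each). ZFP-1 passed without chromosome I (adjusted p = 0.0281), and SIN-3 without II (adjusted p = 0.0207) and with arms of 20% (adjusted p = 0.0186, exact binomial test for each). Over the 5 autosomes as units, SCC-1 was higher on the left arm on 4, which an exact sign-flip permutation test cannot separate from equal numbers (p = 0.125, two-sided; the smallest p it allows is 0.0625).

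Of the 30 combinations of protein and autosome, 2 passed the test between sides. For SIN-3 on III, 94 intervals were on the left and 50 on the right arm (adjusted p = 0.00557, exact binomial test), and for ZFP-1 on IV, 81 were on the left and 41 on the right arm (adjusted p = 0.00557). Neither call held with neighbors within 10 kb counted once, where SIN-3 on III had 40 on the left and 42 on the right (adjusted p = 1) and ZFP-1 on IV had 52 and 35 (adjusted p = 0.724, exact binomial test for both). For SCC-1 on IV, 52 were on the left and 27 on the right (adjusted p = 0.0655, exact binomial test). On II the right arm held more intervals by value for BLMP-1, JMJD-2, SIN-3 and ZFP-1, with 53 on the right and 33 on the left for SIN-3 (adjusted p = 0.239, exact binomial test). TOP-2 and SCC-1 had more on the left arm of II.

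**Figure D4:**
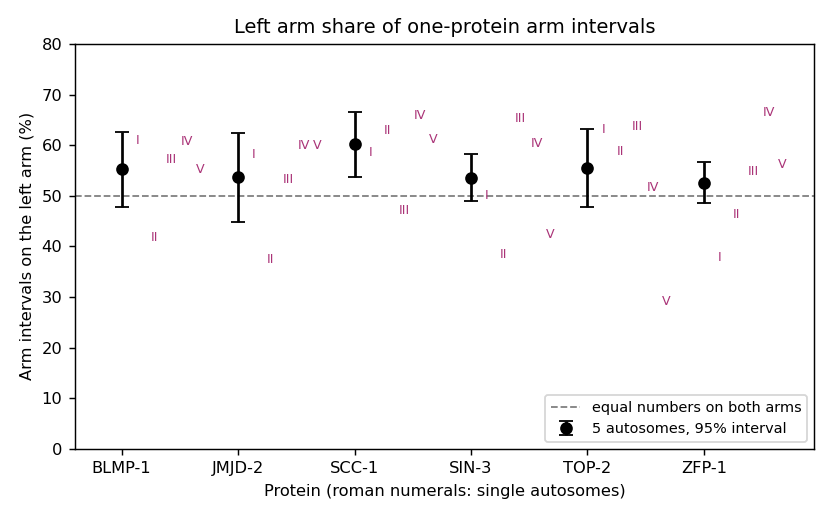
Percentage of the one-protein arm intervals of each protein that lay on left arms (y axis), for the 6 proteins (x axis). Black points with bars give the share over the 5 autosomes with its exact 95% interval, roman numerals give single autosomes, and the dashed line marks equal numbers. SCC-1 (60.3%) has the highest share, and the single autosomes run from 29.2% (TOP-2 on V) to 66.4% (ZFP-1 on IV).

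In position within the arms no protein passed the test against the others. The outer 50% of the arm held between 51.4% (BLMP-1) and 59.8% (JMJD-2) of the arm intervals (adjusted p between 0.719 and 0.957, Fisher's exact test, with 0 of 6 under 0.05 before adjustment). With arms of 33% all 6 passed, BLMP-1 and ZFP-1 with fewer and the other 4 proteins with more outer intervals (highest adjusted p = 0.0471, for SCC-1, Fisher's exact test), whereas with arms of 20% none did. The median distance from the chromosome end was between 1558 kb (JMJD-2) and 1977 kb (SCC-1). Of all 1800 intervals, 501 lay in the outermost of 4 equal parts of the arm, then 472, 410 and 417 in the parts toward the center. The interval nearest to the limit on its inner side was of ZFP-1, at 24.9% from the end of II, and the nearest excluded one of SIN-3, at 25.01% from the end of IV.

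Several outermost intervals were at the very ends. BLMP-1 alone held the outermost intervals of both arms of I, from 1 to 480 and from 15071715 to 15072423. An SCC-1 interval began at the first base of II (1 to 108). SIN-3 held the outermost interval of the right arms of III and IV, TOP-2 that of the right arm of II, and ZFP-1 that of the left arms of III, IV and V and of the right arm of V. On the right arms these intervals define the chromosome end by the rule used here.

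One-protein intervals were mostly well apart from other proteins, with a median of 6.92 kb to the nearest peak of another protein. The median ran from 4.08 kb for SCC-1 to 8.89 kb for TOP-2 and 8.92 kb for ZFP-1. These distances depend in part on how many peaks the other proteins have. That number is lowest for ZFP-1, which holds 2466 of the 7558 peaks itself. For 22 intervals the distance was under 100 bp and for 280 under 1 kb, so that these were one-protein intervals by a narrow margin, and for 698 (38.8%) it was over 10 kb. TOP-2 had the lowest share of intervals with another protein within 1 kb (14 of 171, 8.19%) and SCC-1 the highest (49 of 234, 20.9%). In the centers the share was higher by value for all 6 proteins, for example 30.1% for SCC-1 and 17.2% for ZFP-1 against 12.6% on arms. None passed the test (lowest adjusted p = 0.0862 in Fisher's exact test). Centers held 2706 intervals and arms 2254 on the same length, so other peaks were denser in the centers. The part of this density in the contrast was not tested. With other arm limits ZFP-1 passed, with arms of 33% (adjusted p = 0.0374) and of 20% (adjusted p = 0.0347, Fisher's exact test for both). Before adjustment SCC-1 (p = 0.0287) and ZFP-1 (p = 0.0158, Fisher's exact test) were under the threshold.

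**Figure D5:**
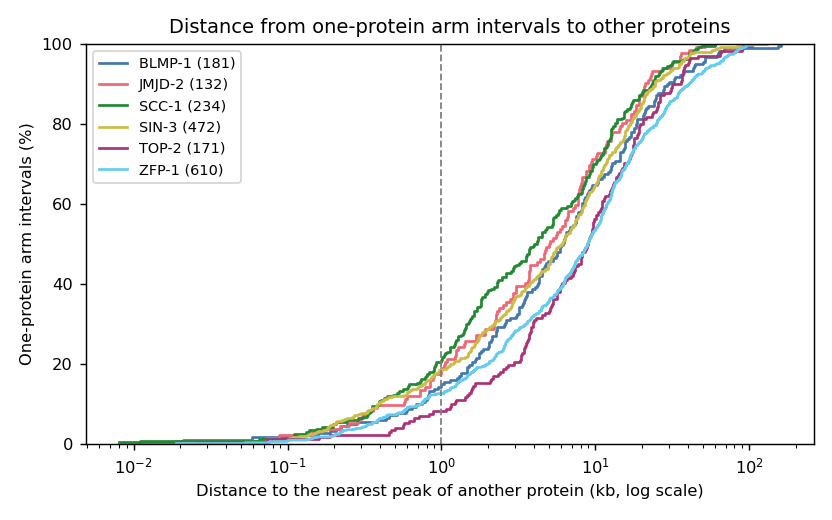
Cumulative percentage of one-protein arm intervals (y axis) by distance to the nearest peak of another protein in kb (x axis, log scale), with the number of intervals of each protein in parentheses. The dashed line marks 1 kb, which 8.19% (TOP-2) to 20.9% (SCC-1) of the intervals lie below.

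The nearest arm interval of any kind was often of the same protein. This was so for 59 of 171 TOP-2 intervals (34.5%), although TOP-2 made up 7.59% of the intervals on arms. The corresponding values were 19.3% and 8.03% for BLMP-1, 23.5% and 10.4% for SCC-1, 12.9% and 5.86% for JMJD-2, 36.7% and 20.9% for SIN-3, and 43.9% and 27.1% for ZFP-1. Among neighbors of SCC-1 the next most frequent protein was SIN-3 (23.1%), near the 20.9% that SIN-3 made up of the intervals on arms. These shares describe the lists and were not tested. Another interval of the same protein within 10 kb on the same arm was found for 45.7% of ZFP-1, 41.9% of SIN-3, 57 of the 171 TOP-2, 29.5% of SCC-1, 24.9% of BLMP-1 and 12.9% of JMJD-2 intervals. TOP-2, with 171 intervals, thus had a higher share by value than SCC-1 with 234 and BLMP-1 with 181.

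Peaks in arm intervals were narrow for 5 of the 6 proteins. The median width was lowest for SIN-3 and SCC-1 (233 bp each), then TOP-2 (234 bp), JMJD-2 (246.5 bp) and ZFP-1 (251 bp), and each was within 2 bp of the median in the centers. The widest peak had 294 bp for TOP-2, 330 bp for JMJD-2, 448 bp for ZFP-1, 464 bp for SCC-1 and 479 bp for SIN-3. For BLMP-1, whose peaks were called with another tool, the median was 324 bp on arms and 333.5 bp in centers. Peaks over 1 kb made up 13 of the 181 BLMP-1 arm intervals (7.18%, 3.88% to 12.0%) and 16 of 332 in centers (4.82%), which did not pass (p = 0.318, Fisher's exact test, odds ratio 1.53). The 13 wide peaks held 34.0% of the bases in these BLMP-1 intervals.

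The widest intervals were a pair of BLMP-1 intervals on the right arm of V, from 17119952 to 17126614 (6663 bp) and from 17128168 to 17132127 (3960 bp). This pair had no peak of another protein within 153 kb and 161 kb, the largest distances among the 1800 intervals. The other wide intervals lay nearer to another protein, from 4.32 kb (2307 bp, left arm of V) to 68.0 kb (1125 bp, right arm of V). Of these, only that of 2307 bp and that of 1506 bp on the right arm of IV (8.38 kb) lay within 10 kb. The median distance over all BLMP-1 arm intervals was 6.13 kb. In shared arm intervals, which the selection left out, the widest BLMP-1 peak had 11192 bp. Whether width and distance go together was not tested. The right arm of V held 4 of the 13 wide intervals and the left arm of III 3. After the pair on V, the next widest interval was on III from 1017345 to 1020640 (3296 bp). In the RefSeq gene table of another assembly (WBcel235), V carries 15 rRNA genes and 12 sls-1 genes, which encode spliced leader RNA, and I carries 5 rRNA genes. Whether the wide BLMP-1 intervals, or those at the ends of I, lie on such genes was not tested.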

How the data were processed

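The deposited files are 6 peak lists of genomic positions in ce10 (chromosome, first and last base), without score, height or count. By the study's methods, the authors used YAPC on the 2 replicates of each protein except BLMP-1, for which MACS2 was used, and kept peaks that passed IDR (P threshold 0.01). In the submitters' processing notes, BWA, MACS2 and ce10 are listed. Their versions were not given in the sources used here. Titles gave the protein of each sample.

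Peaks were merged at 1 shared bp, and chromosome length was the largest peak end over the 6 lists. Fisher's exact and exact binomial tests were two-sided with Benjamini-Hochberg adjustment at a threshold of 0.05. Named sites were, by rule, the densest 1-Mb windows in steps of 100 kb, the widest member of each protein, the 3 tightest runs of 5, the outermost members and those at the 25% limit. Runs of consecutive intervals, the further wide BLMP-1 members, the pairs of proteins and the tests of side between proteins and autosomes were added after the first results were seen. The members and comparisons were chosen with earlier results of these data known. Alternatives changed the arm limit, merging, wide peaks, lists, neighbors, autosomes and reference. With the arm limit changed, the outer part was the outer 50% of each arm. Procedures were tested on simulated data. Work was done in Python 3.11.15 with pandas 2.3.3, scipy 1.17.1, numpy 2.4.6 and matplotlib 3.10.9. The lists combine replicates, so depth and replicate error could not be assessed.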

Additional observations from a re-analysis of the deposited data

Results flagged for a closer look

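The left share of 3 proteins differed between autosomes when 1 autosome was tested against the other 4 (Fisher's exact test, Benjamini-Hochberg adjustment over 30 combinations, chosen after the first results were seen). SIN-3 had 65.3% of its arm intervals of III on the left arm, against 48.5% on the other autosomes (adjusted p = 0.00912, Fisher's exact test), and 38.4% on II, against 57.0% (adjusted p = 0.0141). ZFP-1 had 66.4% on the left arm of IV, against 49.2% elsewhere (adjusted p = 0.00912), and 37.8% on that of I, against 55.9% (adjusted p = 0.00912, both by Fisher's exact test). For TOP-2 the left arm of V held 29.2%, 7 of 24 intervals, against 59.9% elsewhere (Fisher's exact test, adjusted p = 0.0428). The 5 values compare parts of the same lists and are not independent of each other within a protein. With neighbors within 10 kb counted once, none of the 5 passed: the difference was 0.52 percentage points for SIN-3 on III (adjusted p = 1), -13.8 for SIN-3 on II, 11.2 for ZFP-1 on IV, -13.9 for ZFP-1 on I and -25.0 for TOP-2 on V (adjusted p = 0.365 for each of these 4, Fisher's exact test), and before adjustment ZFP-1 on I (p = 0.0227) and TOP-2 on V (p = 0.0375, Fisher's exact test) were under 0.05.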

How the results depend on the processing

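Of 528 single comparisons under alternatives, 458 kept their direction where called and their side of the threshold, 39 lost and 25 gained a call, and 6 reversed. In arm share, 3 proteins rather than 5 passed against chromosome length. In one-protein share, 0 rather than 3 passed with arms of 33%, with peaks less than 1 kb apart merged and with neighbors counted once, and TOP-2 reversed without the ZFP-1 list (-5.97 percentage points). In left against right arms, 0 rather than 1 passed with arms of 33%, merging, neighbors counted once, without chromosome IV and by the sign-flip test, and 2 passed with arms of 20% and without I or II. With neighbors counted once, an alternative added for these results after seeing the data, 0 rather than 2 combinations passed between the sides of single autosomes, with 0 under 0.05 before adjustment (exact binomial test) and SIN-3 on III reversed (-1.22 points), and 0 rather than 5 left shares differed between autosomes. The left excess of all intervals was then 1.94 points above 50% (p = 0.156, exact binomial test). In outer against inner arm, 6 rather than 0 passed with arms of 33%, where SCC-1 reversed (6.30 points). For near neighbors, 1 rather than 0 passed with arms of 33% or 20%. For the autosomes, 3 rather than 5 combinations passed with arms of 33% and without the ZFP-1 list, 1 with neighbors counted once and 14 against arm length, where BLMP-1 on III (6.50 points), ZFP-1 on III (5.10) and ZFP-1 on V (-5.50) reversed. The reference there is length and no longer the other proteins, and the other causes were not tested. No paired analysis was possible because each list already combines both replicates, and for the same reason no replicate could be left out. The lists carry no score, so no stricter threshold was tried, and depth could not be assessed. Merging at 1 kb leaves no near neighbors to compare.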
